A study of Mus musculus with 6 samples.

Results

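Gdf9 and Bmp15 are the genes of the 2 growth factors that the growing oocyte secretes, and they were taken by their symbols from a deposited table of 16454 genes, in which each of the 2 has 1 row. The table holds RNA sequencing values of 6 whole ovaries from CD1 mice, an outbred stock, collected on postnatal day 21 in generation 3 after the dosed dams. The 3 ovaries of the DEHP lineage descend from F0 dams given the plasticizer di(2-ethylhexyl) phthalate (DEHP) at 20 µg/kg/day, and the 3 of the control lineage from dams given tocopherol-stripped corn oil as vehicle. The animals sampled were themselves of the same age, tissue and stock in both lineages, and each ovary was sequenced alone. The labels give neither the number of founding dams nor the litters, so every p-value rests on the spread of these 6 ovaries and says nothing of founders.

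GDF9 and BMP15 belong to the TGF-beta superfamily. Each is made as a precursor that a proprotein convertase cleaves, and the mature factors form dimers that reach the granulosa and cumulus cells around the oocyte. There they bind the receptor BMPR2 together with a partner receptor, TGFBR1 or BMPR1B, and signal through SMAD proteins. Mice that lack Gdf9 are infertile because follicles stop at an early stage, whereas mice that lack Bmp15 are subfertile. In a whole ovary on postnatal day 21, the RNA of both comes from oocytes, mostly those of growing follicles.

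Both genes have 2 exons in GENCODE's annotation of GRCm38. RefSeq places Gdf9 (Entrez 14566) on chromosome 11 from 53430774 to 53437904, on the plus strand, and Bmp15 (Entrez 12155) on chromosome X from 6314054 to 6320724, on the minus strand. None of the 31-base words of either gene's GENCODE transcripts occurred in a GENCODE transcript of another gene (0 of 2025 for Gdf9 and 0 of 3030 for Bmp15). No near-identical copy was thus found among these transcripts. The overlap of RefSeq's Gdf9 with its neighbour Uqcrq is given further on. RefSeq's promoter table matched 1 of the 2 genes, Bmp15. Its 250 bases before the start are shown because oocyte genes are read by the homeobox factor NOBOX and the E-box factor FIGLA, whose own levels are given further on. The stretch is chrX:6320725-6320974 of GRCm38.p6 on the minus strand, and capitals mark a TAATTA core and an E-box of the form CANNTG.
Bmp15 promoter: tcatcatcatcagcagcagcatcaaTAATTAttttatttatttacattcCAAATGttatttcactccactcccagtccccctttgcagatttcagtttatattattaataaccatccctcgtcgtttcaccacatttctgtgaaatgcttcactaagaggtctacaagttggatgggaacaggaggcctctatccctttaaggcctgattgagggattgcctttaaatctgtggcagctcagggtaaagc
Both strands were searched, and the 2 matches do not overlap. The TAATTA match begins at base -225 and the E-box at base -201 from the start. TAATTA was in 4.84% of 32851 promoter stretches of this length and CANNTG in 66.2%. TAATTG, the other core searched, had 0 matches here and occurred in 7.17% of the stretches.

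The values are log2 CPM, read counts scaled to library size, from which the authors had removed a surrogate variable, an estimated nuisance direction across samples. Summed CPM ranged from 979868 to 1026735 per library, the depth of the libraries is unknown, and no counts were used here. The removed direction had its largest weights, -0.60 and 0.75, on DEHP replicates 1 and 3, so these ovaries are closer to each other than they were before. SDs in the DEHP lineage are therefore too small. The markers of the tissue were present in all 6 libraries: granulosa cell markers summed to between 13000 and 14500 CPM in control and between 14500 and 15700 CPM in DEHP ovaries. Theca and interstitial markers summed to 3850, 4580 and 4230 CPM in control replicates 1, 2 and 3, all above the 3680, 3580 and 3560 CPM of DEHP replicates 1, 2 and 3. The largest part of each sum was Hsd3b1, at 2210, 2780 and 2090 CPM in control and 2090, 2060 and 2040 CPM in DEHP ovaries. Cyp17a1, of the same list, overlapped between the lineages, at 33.4, 139 and 143 CPM in control and 57.8, 35.8 and 36.6 CPM in DEHP ovaries. Adipocyte markers, of fat that adheres to the ovary, summed to between 61.1 and 230 CPM in the control lineage and between 47.5 and 502 CPM in the DEHP lineage. They overlapped between the lineages. The part of these cell types in the values below was not tested.

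Gdf9 and Bmp15 both had lower values in all 3 ovaries of the DEHP lineage than in any ovary of the control lineage. The same held for 12.2% of all genes. Taken on the log2 scale, the mean was 19.6% lower for Gdf9 and 21.4% lower for Bmp15. Neither difference passed the adjusted p over all genes. Gdf9 was at 317, 249 and 316 CPM in control replicates 1, 2 and 3, and at 237, 226 and 241 CPM in DEHP replicates 1, 2 and 3. Control replicate 2 stood well below the other control ovaries and only 0.04 on the log2 scale above the highest DEHP ovary. Gdf9 averaged 294 ± 39.0 CPM over the control ovaries and 235 ± 7.73 CPM over the DEHP ovaries (SD, n = 3 each). On the log2 scale the difference of Gdf9 was -0.31 (SE 0.109, 95% interval -0.57 to -0.06), which puts the DEHP lineage at 80.4% of the control lineage (67.3% to 96.0%). By limma, a moderated linear model fitted to all genes, with Benjamini-Hochberg adjustment, the adjusted p was 0.502 (unadjusted p 0.0226).

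Bmp15 was at 151, 139 and 150 CPM in control replicates 1, 2 and 3, and at 114, 116 and 116 CPM in DEHP replicates 1, 2 and 3. The groups were further apart than for Gdf9, with a gap of 0.26 on the log2 scale between the lowest control and the highest DEHP ovary. The 3 DEHP ovaries were nearly level with each other. Bmp15 means were 147 ± 6.52 CPM and 115 ± 0.944 CPM (SD, n = 3 each). The log2 difference of Bmp15 was -0.35 (SE 0.0689, 95% interval -0.51 to -0.19), or 78.6% of the control lineage (70.3% to 87.9%). Its limma adjusted p was 0.296 (unadjusted p 0.00131), the 73rd smallest p of 16454, while that of Gdf9 was the 741st.

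**Figure D1:**
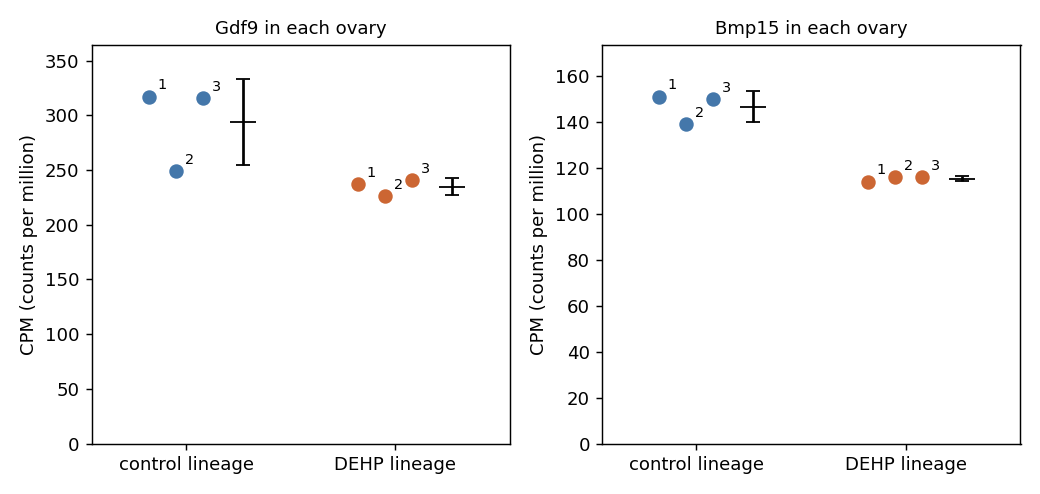
CPM of Gdf9 (left) and Bmp15 (right) in each ovary, numbered by replicate, on axes that start at 0; the black bar is the mean with its SD over 3 ovaries. All 3 DEHP-lineage ovaries lie below all 3 control-lineage ovaries for both genes, with control replicate 2 the closest to them. The lineages lie apart in this way for 12.2% of all genes.

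The same limma fit called 7 genes at an adjusted p of 0.05 (0.0425% of those tested), neither of them Gdf9 or Bmp15. An unadjusted p under 0.05 with a lower mean in the DEHP lineage was found for 4.02% of all genes, and both members are among them; with a higher mean it was 4.76%. Groups that did not overlap, with the DEHP lineage lower, were found for 12.2% of genes. For 3 ovaries against 3 an exact two-sided permutation test cannot give a p below 0.1, and both genes reached that value. In the authors' deposited table the log2 fold changes were -0.32 for Gdf9 (adjusted p 0.754) and -0.35 for Bmp15 (adjusted p 0.548).
Without control replicate 2 the difference of Gdf9 was -0.43, and without control replicates 1 or 3 it was -0.26 each, with unadjusted limma p values of 0.0517 and 0.0627. For Bmp15 the differences without 1 ovary stayed between -0.38 and -0.33, and the largest unadjusted p was 0.0109.

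The 2 factors act together, as separate dimers or joined in one, so their proportion was compared within each ovary. Bmp15 minus Gdf9 in log2 CPM was -1.07, -0.84 and -1.07 in control replicates 1, 2 and 3, and -1.05, -0.96 and -1.06 in DEHP replicates 1, 2 and 3. The groups overlapped, and replicate 2 was the highest in both lineages. The difference between lineages was -0.03 (95% interval -0.34 to 0.28; exact permutation test, two-sided, p = 1, n = 3 each). The interval leaves room for a proportion changed by about as much as either gene, so the result does not show that it was equal. Without control replicate 2 the sign turned, to 0.045.

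Levels of different genes can be compared only per length. Per kilobase of annotated exon, Gdf9 was at 164 ± 21.8 CPM in control ovaries and 131 ± 4.31 in DEHP ovaries, and Bmp15 at 48.0 ± 2.13 and 37.7 ± 0.309 (SD, n = 3 each). The size of that gap depends on the length used, since Bmp15 has 3060 exon bases but 1176 coding bases, and Gdf9 has 1793 and 1323. With the same whole-gene CPM divided by coding length, Gdf9 was at 222 ± 29.5 and 178 ± 5.84 CPM per kilobase. Bmp15 was then at 125 ± 5.55 and 98.1 ± 0.803. Reads over the coding part alone were not available here. By either length every ovary had more Gdf9 than Bmp15 RNA: the lowest Gdf9 value per coding kilobase was 171 and the highest Bmp15 value 128.

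Among the 19 measured ligands of the TGF-beta superfamily, Gdf9 was the 4th and Bmp15 the 5th most abundant per exon kilobase. Inha, the inhibin subunit, came before them at 2810 ± 229 CPM per kilobase in the control lineage. Inhbb, a subunit of activin and inhibin B, followed at 255 ± 78.0, and Amh, which granulosa cells secrete as anti-Müllerian hormone, at 231 ± 18.0 (SD, n = 3 each). Inhbb and Amh do not differ beyond their spread in the control lineage. Both were above Gdf9 in every ovary but control replicate 1, where Inhbb was at 169 and Gdf9 at 177. Next to Bmp15 came Tgfb3 at 40.8 ± 11.9, Bmp3 at 39.9 ± 1.06 and the activin A subunit Inhba at 31.3 ± 14.9. In the DEHP lineage Bmp15 (37.7) lay within the spread of Tgfb3 (41.2 ± 3.71), Bmp3 (39.6 ± 8.99) and Inhba (39.8 ± 5.53), so its place among these 4 is not resolved there. In the control lineage Tgfb3 was above Bmp15 in control replicate 2 (47.3 against 45.5), so their order is not resolved there either. Bmp6, which oocytes also make, was at 8.74 ± 0.624 and 9.52 ± 0.567.

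**Figure D2:**
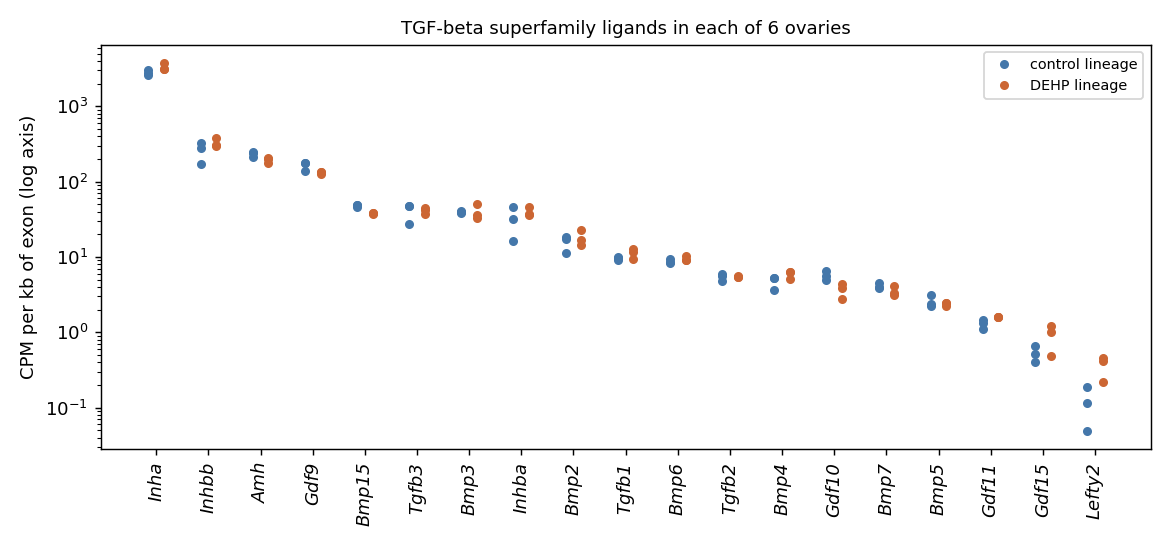
CPM per kilobase of annotated exon of 19 TGF-beta superfamily ligands in each of 6 ovaries, on a log axis, ordered by their mean. Gdf9 is in 4th place, below Inha, Inhbb and Amh, and Bmp15 in 5th place by its mean, close to Tgfb3, Bmp3 and Inhba.

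Of the 17 other measured ligands, 5 had lower means and 12 had higher means in the DEHP lineage, with a median log2 difference of 0.20, against -0.012 over all genes. That median was 0.11 without control replicate 1, 0.10 without control replicate 3 (8 lower, 9 higher) and 0.08 without DEHP replicate 2. By limma none passed the adjusted p (0 of 17). At an unadjusted limma p under 0.05, where 4.02% of all genes were lower and 4.76% higher, 2 were lower and 1 was higher. The lower ones were Gdf10 (-0.65, SE 0.189) and Amh (-0.25, SE 0.101). The higher one was Lefty2 (1.76, SE 0.593), whose level of 0.118 and 0.366 CPM per kilobase in the control and DEHP lineage is so low that its fold depends on the prior count. Bmp6 had a log2 difference of 0.13 (-0.10 to 0.35), on the other side of 0 from Bmp15.

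Since oocytes are a small part of the ovary, Gdf9 and Bmp15 were set beside other genes of the oocyte. In whole ovaries, fewer oocytes and less RNA per oocyte cannot be told apart. Of 46 other oocyte markers listed, 43 were measured, and 36 of these had lower means in the DEHP lineage and 7 had higher means, where 53.1% of all genes had lower means. Their median log2 difference was -0.17, and it was -0.28 without control replicate 2 and -0.09 without DEHP replicate 2. Of theca and interstitial markers 10 of 11 also had lower means, with 0 past the adjusted p, 1 lower at an unadjusted p under 0.05 and a median of -0.23, whereas 9 of 16 granulosa markers had lower means, with a median of -0.01. By limma 0 of the 43 oocyte markers passed the adjusted p. At an unadjusted limma p under 0.05, where 4.02% of all genes were lower and 4.76% higher, 6 markers were lower and 0 higher. These were Nlrp14 (-0.37, SE 0.0864), Nlrp9a (-0.41), Nlrp9b (-0.33) and Nlrp9c (-0.43) of the oocyte NLRP family, the oocyte linker histone H1foo (-0.24) and Zar1l (-0.48), a relative of the maternal-effect gene Zar1. Members of the Nlrp9 group resemble each other in sequence, so their separate levels are less sure. The count was 3 without control replicate 1, 18 without control replicate 2, 10 without DEHP replicate 1 and 3 without DEHP replicate 2. It was 1 with the replicate number as a block. The share of all genes at that p in these other fits was not worked out.

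Within this list Bmp15 had a smaller p in the main limma fit than any of the 43 other markers, and 4 of them had a smaller p than Gdf9. The log2 SD of Bmp15 over the DEHP ovaries was 0.012, and SDs in that lineage are too small, as said above. Its unadjusted limma p was 0.0109 without DEHP replicate 3 and 0.0431 with the replicate block. By the size of the difference, 5 markers were lower than Bmp15 and 8 lower than Gdf9. The zona pellucida genes, which encode the coat of the oocyte, had differences of -0.23 (Zp1), -0.25 (Zp2) and -0.23 (Zp3). Nlrp5, a maternal-effect gene, was at -0.07 (-0.42 to 0.29). Kit, the receptor through which oocytes receive granulosa KIT ligand, was at -0.04 (-0.22 to 0.15). Kit did not follow the other markers within the control lineage. It was at 64.2, 73.8 and 68.6 CPM in control replicates 1, 2 and 3, where the marker median was lowest in replicate 2. Per kilobase of exon Gdf9 was the most abundant of the 45 measured oocyte genes. In the control lineage Zp2 was at 130 ± 18.2 and Zp3 at 114 ± 24.2 CPM (SD, n = 3 each). The SDs of Gdf9 and Zp2 overlap, but Gdf9 was above Zp2 within every ovary. Bmp15 was in 13th place by its mean. Its order beside Zar1, Bcl2l10 and Zp1 is not resolved: in control replicate 2 Bmp15 was at 45.5, above their 42.5, 42.0 and 39.2. That place also depends on the length used, as said above.

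**Figure D3:**
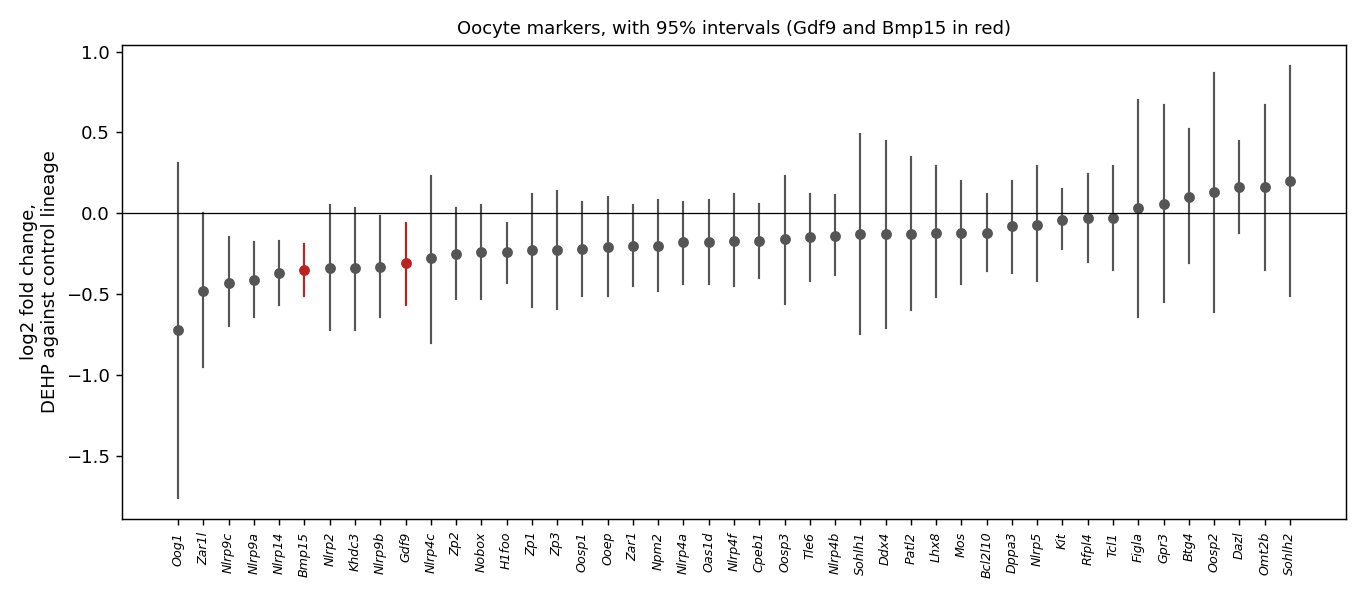
Log2 fold change of 45 oocyte genes, DEHP lineage against control lineage, as points with 95% intervals from the limma fit over all genes, with Gdf9 and Bmp15 in red. Most points lie below 0, at a median of -0.17, and the intervals of Gdf9 (-0.57 to -0.06) and Bmp15 (-0.51 to -0.19) are 2 of the 8 that lie wholly below 0.

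The oocyte signal itself varied between ovaries of 1 lineage. The median log2 CPM of the 43 other markers was 5.26, 5.02 and 5.18 in control replicates 1, 2 and 3, and 5.07, 4.84 and 5.07 in DEHP replicates 1, 2 and 3. Control replicate 2 was thus below DEHP replicates 1 and 3, and the lineages overlapped. Gdf9 had its own lowest control value in the same ovary and its lowest value of all in DEHP replicate 2, which was also lowest for the markers. Bmp15 varied less within a lineage than the markers did.

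Relative to that median, Gdf9 was at 3.04, 2.94 and 3.13 in control replicates 1, 2 and 3, and at 2.82, 2.98 and 2.85 in DEHP replicates 1, 2 and 3. The groups then overlapped, with DEHP replicate 2 above control replicate 2. The difference between lineages was -0.15 (95% interval -0.42 to 0.11; exact permutation test, two-sided, p = 0.2, n = 3 each). Bmp15 relative to the same median was at 1.98, 2.10 and 2.06 in the control ovaries, and at 1.77, 2.02 and 1.79 in the DEHP ovaries. DEHP replicate 2 again lay within the control range. The difference for Bmp15 was -0.19 (-0.51 to 0.13; exact permutation test, two-sided, p = 0.2, n = 3 each). With the other markers subtracted, the difference was thus -0.15 in place of -0.31 for Gdf9 and -0.19 in place of -0.35 for Bmp15. Set against the 28 markers with a mean log2 CPM of at least 4, the difference of Gdf9 was -0.10 and that of Bmp15 was -0.13.

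**Figure D4:**
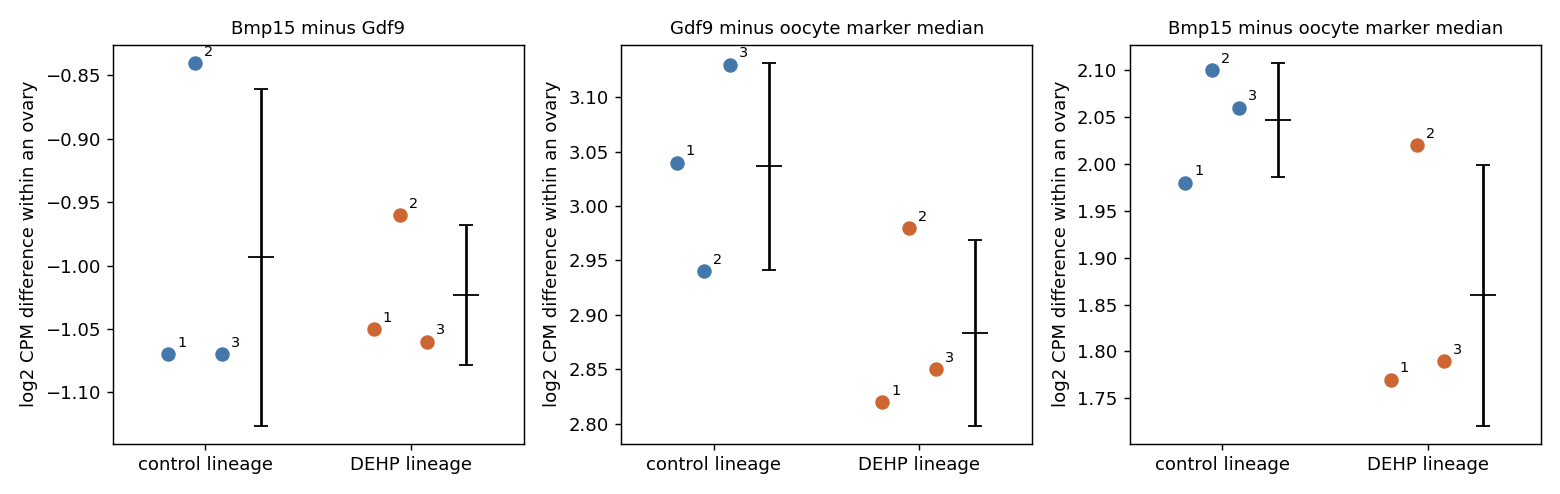
Log2 CPM differences within each ovary, numbered by replicate, with mean and SD over 3 ovaries: Bmp15 minus Gdf9 (left), Gdf9 minus the median of 43 other oocyte markers (middle) and Bmp15 minus the same median (right). The lineages overlap in all 3 panels, and DEHP replicate 2 lies apart from DEHP replicates 1 and 3 in each.

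Of 9 measured regulators of oocyte genes, 4 had lower and 5 had higher means, with a median log2 difference of 0.02. The sign of that median turned with single ovaries, from -0.12 without DEHP replicate 1 (6 of 9 lower) to 0.10 without DEHP replicate 2 (4 of 9 lower). By limma 0 of 9 passed the adjusted p, and Taf4b alone had an unadjusted p under 0.05. Over all genes 4.02% were lower at that p. Taf4b, a subunit of the general factor TFIID that the ovary needs, was at -0.35 (SE 0.122, adjusted p 0.503). Nobox averaged a log2 CPM of 5.35 in control and 5.12 in DEHP ovaries, a difference of -0.24 (-0.53 to 0.05). Figla, the E-box factor, was at 1.79 and 1.82, with a wide interval of -0.64 to 0.70. Sohlh1, which acts in small follicles, was at 1.81 and 1.68. Nr6a1, a nuclear receptor that represses both growth factor genes, was at 4.42 and 4.44 (difference 0.02, -0.25 to 0.29).

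Of the 5 proprotein convertases, Pcsk6 had the smallest p, with a difference of 0.33 (SE 0.086, unadjusted p 0.00603, limma adjusted p 0.426). Furin, the best known enzyme of this kind, had a difference of 0.00 (-0.19 to 0.19). Among antagonists that bind such ligands outside the cell, 7 of 9 had higher means, where 53.1% of all genes had lower means. Their median was 0.17, and it lay between 0.14 and 0.29 without 1 ovary. Chrdl1 (0.41, SE 0.153) and Bmper (0.57, SE 0.235) were higher at an unadjusted limma p under 0.05, as 4.76% of all genes were. By limma 0 of 9 passed the adjusted p. Without control replicate 3, 3 of 9 had lower means, and 1 was lower and 1 higher at an unadjusted limma p under 0.05. The share of all genes at that p in this fit was not worked out. Grem1, a BMP antagonist of cumulus cells, had a difference of 0.17 (-0.39 to 0.73). Fst, which encodes the activin-binding follistatin, had one of -0.06 (-0.31 to 0.19).

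Of 18 receptors and SMADs, 11 had lower and 7 had higher means, with a median log2 difference of -0.04, and by limma 0 of 18 passed the adjusted p. Bmpr2, the shared receptor of both factors, averaged a log2 CPM of 10.34 in control and 10.22 in DEHP ovaries (difference -0.12, -0.42 to 0.19). Bmpr1b, the partner receptor used by BMP15, had a difference of -0.15 (-0.38 to 0.09). Tgfbr1, the partner receptor used by GDF9, had one of 0.26 (-0.00 to 0.53). Smad3, which with Smad2 carries the GDF9 signal, had a difference of 0.23 (SE 0.086, unadjusted p 0.033, limma adjusted p 0.537). It was the sole member of this list with an unadjusted p under 0.05, where 4.76% of all genes were higher. Smad2 was at -0.06 (-0.24 to 0.13).

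Genes known to respond to the 2 factors in granulosa and cumulus cells had lower means in 13 of 26 cases and higher means in 13. Their median was 0.00, and it lay between -0.07 and 0.05 without 1 ovary. The list was not split by the direction in which each gene responds, so these counts cannot show whether a response was present. Ptgs2, the 27th gene of the list, was not analysed here. By limma 0 of 26 passed the adjusted p. At an unadjusted limma p under 0.05, where 4.02% of all genes were lower and 4.76% higher, 3 were lower and 1 higher. The lower ones were Kitl, the KIT ligand (-0.93, SE 0.141, limma adjusted p 0.165), the cholesterol enzyme gene Cyp51 (-0.36) and Amh. The higher one was Ptx3, a matrix protein of the expanding cumulus, at 1.06 (SE 0.202, limma adjusted p 0.272). Ptx3 was at a low log2 CPM of 1.62 and 2.68. Other cumulus expansion genes were low as well: Has2, the hyaluronan synthase, was at 0.72 and 1.13, and Tnfaip6, which links hyaluronan chains, at 0.54 and 0.93. Npr2, the receptor through which granulosa cells hold meiosis in check, was at 7.43 in both lineages (difference 0.00, -0.33 to 0.33).

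**Figure D5:**
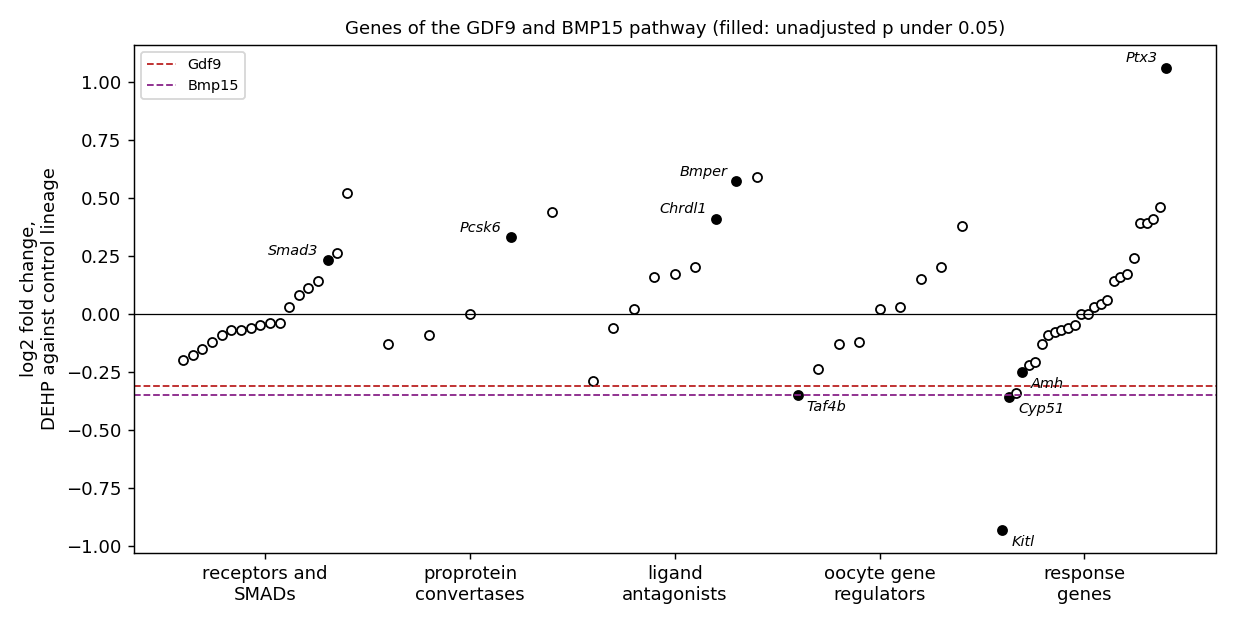
Log2 fold change, DEHP lineage against control lineage, of the measured genes in 5 lists of the GDF9 and BMP15 pathway; filled points have an unadjusted limma p under 0.05, and dashed lines mark Gdf9 (-0.31) and Bmp15 (-0.35). Kitl at -0.93 and Ptx3 at 1.06 lie furthest out, and no gene shown passed the adjusted p.

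The RefSeq models of Gdf9 and its neighbour Uqcrq, a subunit gene of respiratory complex III on the opposite strand, overlap by 58 bases at their starts. The libraries mark strand, but the sources used here do not say how the counting used it. Uqcrq was at a log2 CPM of 5.97 and 5.91 (difference -0.06, SE 0.105) where Gdf9 was at 8.19 and 7.88. Aff4 and Shroom1, the nearest other measured genes on chromosome 11, had differences of -0.05 (SE 0.093) and 0.17 (SE 0.159). Shroom4, 79225 bases from Bmp15 on chromosome X, had a difference of 0.13 (SE 0.088).

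By Pearson correlation of log2 CPM over the 6 ovaries, the 8 genes most like Gdf9 among 12317 were Tmem101, Ndn, Smagp, Pabpc1l, Fgfbp3, Klhl8, Urod and Aurkaip1, with r from 0.993 to 0.999. For Bmp15 the 7 most alike were C87977, Smpx, Tmem107, Snx11, Cmtm6, Ghitm and Mipep, with r from 0.996 to 0.998. With 6 points that share libraries, scaling and the removed direction, such values are common: 161 genes reached an r of 0.95 with Gdf9 and 170 with Bmp15. The 2 growth factor genes had an r of 0.901 with each other, which placed Bmp15 395th for Gdf9 and Gdf9 438th for Bmp15. Of 42 other oocyte markers with a mean log2 CPM of at least 1, 22 had an r of at least 0.8 with Gdf9 and 8 with Bmp15, where 8.35% and 8.93% of all genes compared did. The median r of those markers was 0.82 with Gdf9 and 0.66 with Bmp15.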

How the data were processed

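Whole ovaries of 3 control-lineage and 3 DEHP-lineage mice were compared, with groups from the sample titles. The submitters' processing notes name STAR 2.5.3a, featureCounts, Subread 1.5.2, Trimmomatic 0.36 and edgeR 3.20.5 (with R 3.4.3, FastQC 0.11.5 and bcl2fastq 2.17.1.14) and the build GRCm38.p6; the sources used here give no settings. The authors deposited log2 CPM per ovary after removing a surrogate variable, per the file name, with their own log2 fold change and p-value. All 16454 values of a column were distinct, so no reads could be recovered. The fit used limma 3.58.1 in R 4.3.3 with a mean-variance trend, no filter and no pseudocount, and 3 residual degrees of freedom instead of 4, since deviations from the group means filled 3 directions. The script was tested on simulated data. SEs and intervals come from this fit; those of within-ovary differences use 3 degrees of freedom and no moderation. A threshold of 0.05 was used.

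Gene lists hold textbook markers and pathway genes. Named were Gdf9, Bmp15, 18 genes of set roles, up to 6 per list with the smallest p, neighbours and the 8 most alike genes (established symbols, mean log2 CPM of 1 or more). One gene that the last rule names for Bmp15 is not reported here. The zona genes, Kit, Nlrp5, Bmp6 and the abundant ligands were named after their values were seen. Members and lists were chosen with earlier results of these data known. Exon lengths came from GENCODE for 87.9% of genes. Alternatives were 4 degrees of freedom, a replicate block, median centring, quantile normalization, log2(CPM + 1), a filter, no trend, an average of DEHP replicates 1 and 3, and leaving out each ovary.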

Additional observations from a re-analysis of the deposited data

How the results depend on the processing

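Gdf9 and Bmp15 kept their direction and missed the adjusted p in all of the 14 alternative limma fits. Over these fits the adjusted p of Gdf9 lay between 0.236 and 1 and that of Bmp15 between 0.0757 (with 4 residual degrees of freedom) and 1. Leaving out 1 ovary gave differences of -0.43 to -0.26 for Gdf9 and -0.38 to -0.33 for Bmp15. The count of 7 genes in all moved to 20 with 4 degrees of freedom, 83 with the replicate block, 3 with quantile normalization and 1 with no mean-variance trend, and to between 3 and 270 without 1 ovary; the cause was not tested. Bmp15 minus Gdf9 ranged from -0.073 to 0.045 without 1 ovary and changed sign without control replicate 2 (0.045). Gdf9 relative to the other oocyte markers ranged from -0.20 to -0.11 and Bmp15 from -0.27 to -0.14 in such fits. Same-numbered ovaries did not deviate together (correlations across genes of -0.327, -0.003 and -0.198). A surrogate variable had been removed from these values, so the check cannot decide whether the numbers pair the ovaries. Gdf9 and the median of the other oocyte markers were lowest in replicate 2 of both lineages. Bmp15 was lowest in replicate 2 of the control lineage only. With the replicate block the differences were -0.31 for Gdf9 (unadjusted limma p 0.075) and -0.35 for Bmp15 (0.0431), which changed no call of either gene. The unknown depth limits what the values of low genes such as Has2 and Lefty2 can show.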
